A study of Mus musculus with 8 samples.

Results

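Genes of the Hedgehog signalling pathway, 9 in all, were followed in whole mouse embryos that lack Arid3b. They are the co-receptor genes Cdon, Boc and Gas1, the ligand gene Shh, the receptor genes Ptch1 and Smo, and the transcription factor genes Gli1, Gli2 and Gli3. They are 9 of the 17099 genes tested and are read by 16 probes. The probes were taken by the gene name in the array files. The set was chosen by the null against wild-type difference of Cdon, with the others added as its partners and as readouts, so every null against wild-type value of these 9 genes is a description and carries no test.

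The samples were Arid3b-null embryos (4 pools) and wild-type embryos (4 pools), all taken whole at embryonic day 9.0, with 3 to 4 embryos in a pool. Total RNA of each pool was labelled with Cy3 and hybridised to an Agilent array of its own. The labels give neither the strain, nor the deleted part of the gene, nor whether pools of a group came from separate litters, so the p-values cover only the variation among these pools. The Arid3b protein binds DNA through an AT-rich interaction domain.

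Sonic hedgehog binds Ptch1 at the cell surface, which ends the hold of Ptch1 on Smo, and Smo then shifts the Gli proteins from repressors to activators. Cdon and Boc, related membrane proteins of the immunoglobulin superfamily, and Gas1, a membrane-anchored protein, bind the ligand together with Ptch1 and help cells to receive it. Ptch1 and Gli1 are themselves direct targets and serve as readouts of the pathway, while Cdon, Boc and Gas1 are known to be lowered where the signal is strong. In the mouse embryo of this age the notochord and floor plate secrete the ligand, which patterns the ventral neural tube and the sclerotome of the somites.

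The 5′ windows of Cdon and of its partner Gas1 are shown because the results below set these co-receptors against each other. They are from RefSeq (build GRCm38.p6), run from 250 bases before to 50 bases after an annotated start, and carry in capitals the GC box CCGCCC found on either strand. Of the 9 genes, 6 had a window in the RefSeq table (Boc, Shh and Gli1 are named only). The Cdon window, chr9:35451826-35452125 on the plus strand, belongs to a start that lies 30.5 kb inside the annotated span of the gene, and the Gas1 window, chr13:60177486-60177785 on the minus strand, lies at the start of the gene.
Cdon: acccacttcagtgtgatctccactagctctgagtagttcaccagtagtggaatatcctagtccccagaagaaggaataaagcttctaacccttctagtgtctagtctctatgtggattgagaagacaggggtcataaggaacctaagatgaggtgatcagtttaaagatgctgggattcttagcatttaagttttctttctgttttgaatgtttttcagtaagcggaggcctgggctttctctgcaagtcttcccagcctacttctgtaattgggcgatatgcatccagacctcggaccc
Gas1: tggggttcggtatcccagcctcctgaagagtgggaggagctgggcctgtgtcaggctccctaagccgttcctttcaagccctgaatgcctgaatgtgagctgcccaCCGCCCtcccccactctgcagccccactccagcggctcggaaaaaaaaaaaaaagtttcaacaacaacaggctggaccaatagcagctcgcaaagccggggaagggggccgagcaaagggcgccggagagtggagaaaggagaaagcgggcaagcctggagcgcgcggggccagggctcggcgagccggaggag
The Cdon window held 3 CpG dinucleotides and no GC box, and the Gas1 window 17 CpG dinucleotides and 1 GC box. Of all 32851 windows, 35.7% held the GC box, and it was found in 4 of the 6 member windows (Gli2, Gli3, Gas1 and Ptch1). The GLI binding sequence GACCACCCA, searched on both strands, was found in 0 of the 6 member windows and in 0.253% of all windows, and its core CCACCCA, which lies within it, in 0 of the 6 and in 9.30% of all.

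Arid3b checked the labels. On its brightest probe, null pools 1 to 4 reached 36.1%, 34.5%, 35.1% and 54.2% of the wild-type mean, against 107.6%, 95.2%, 101.7% and 96.1% in wild-type pools 1 to 4. Pools 1 and 2 of each group lay on slide 1 and pools 3 and 4 on slide 2. The null pools took positions 3 and 4 of each slide and the wild-type pools positions 1 and 2, so position and genotype cannot be told apart. Each array had 60.0% to 64.1% of its probes well above background. Markers of heart, neural progenitors, somites, gut endoderm, primitive red cells, endothelium and yolk sac endoderm were measured on these arrays. Of the decidual markers, Prl8a2 and Prl3c1 were not kept as above background. Dcn, which fibroblasts also express, rose 1.70-fold in the null pools (limma adjusted p = 0.0120), while Hsd11b2 stood at -0.40 ± 0.16 (SE, log2; adjusted p = 0.205). Y-linked transcripts also differed between pools, with a level summed over 4 genes, each relative to its highest array, of 2.06, 3.48, 1.92 and 4 in null pools 1 to 4 and of 0.0913, 3.34, 1.12 and 0.104 in wild-type pools 1 to 4. In whole embryos, fewer cells of a type and less RNA per cell cannot be told apart.

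Cdon was higher in all 4 null pools, while its partners and the readouts of the pathway differed by far less. The single Cdon probe, on chromosome 9 at 35399079 to 35399139 (mm7, the build of the array files), had a processed signal of 496, 223, 393 and 509 in null pools 1 to 4, against 159, 123, 203 and 184 in wild-type pools 1 to 4. Null pool 2 was the lowest of its group and still lay above every wild-type pool. After each array was scaled to its 75th percentile, Cdon stood at -1.93 ± 0.43 in the null pools and at -3.23 ± 0.23 in the wild-type pools (SD, n = 4 each, log2 relative to the 75th percentile). The difference was 1.30 ± 0.22 (SE of the limma fit, log2), or 2.47-fold. It was 1.37 within slide 1 and 1.24 within slide 2. Between pools of the same number it was 1.81, 0.92, 1.06 and 1.42 for numbers 1 to 4. Cdon took place 69 of 17099 genes by the size of its rise.

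**Figure D1:**
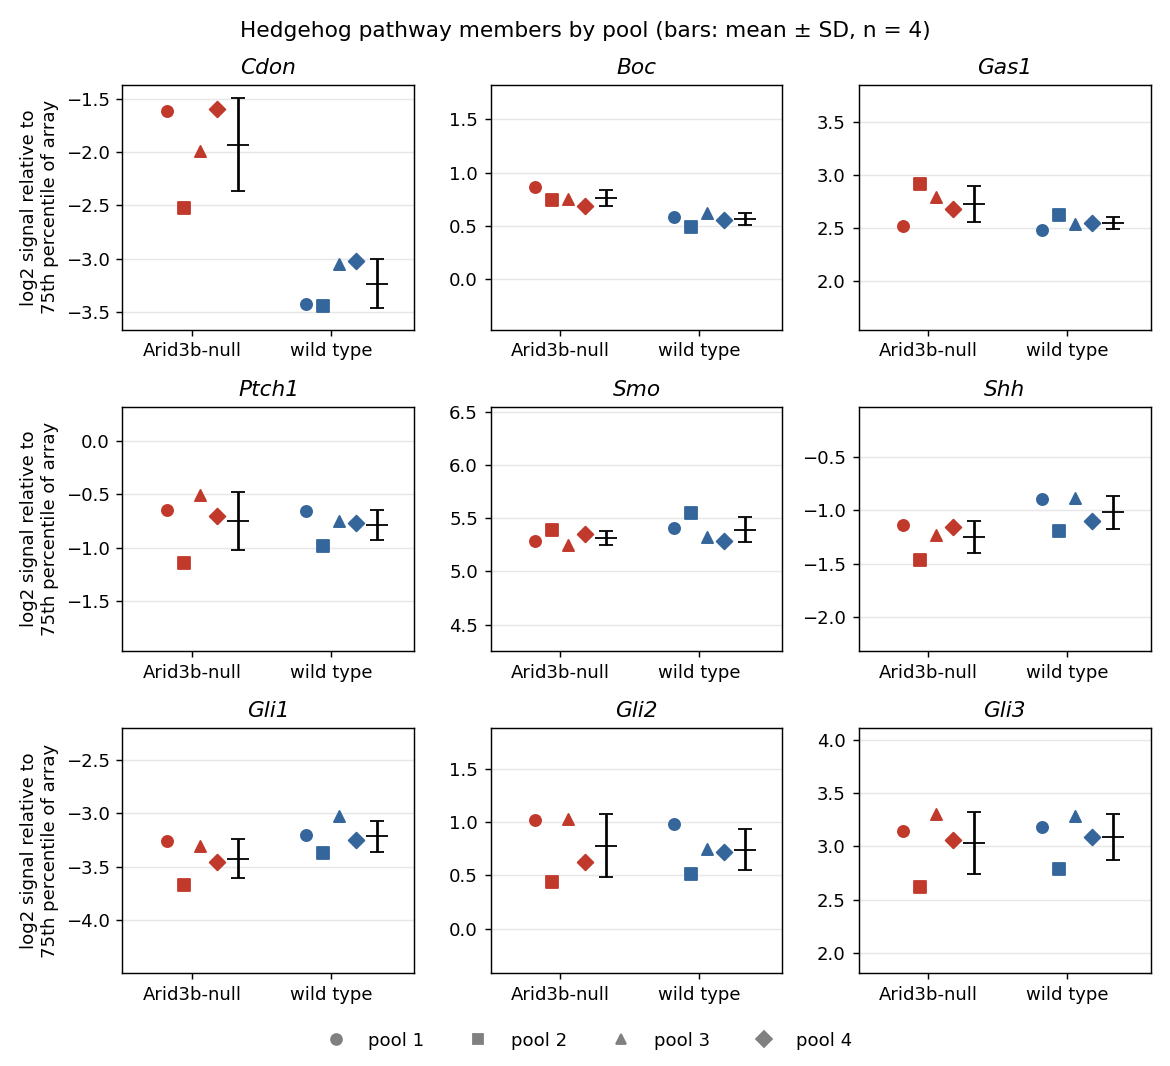
Each panel shows the log2 signal of a gene relative to the 75th percentile of its array, for the probe that stands for the gene, in 4 Arid3b-null pools (red, left) and 4 wild-type pools (blue, right). Marker shapes give the pool number, bars give the mean ± SD, and every panel spans the same number of log2 units, so that the wide gap in Cdon, the narrow gap in Boc and the overlap in the other 7 genes can be compared by eye.

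Of the 9 genes, 1 passed an adjusted p under 0.05 in the fit over all genes (Cdon, higher), where 4.20% of all genes tested passed in either direction and 2.85% passed as higher. Null and wild-type values did not overlap for 2 of the 9 (Cdon and Boc), against 16.1% of all genes. Both counts use the contrast on which the genes were chosen, and nothing is read from them. Cdon passed in 2 of the 8 fits that left out a pool, those without null pool 2 or null pool 4. It passed in 9 of all 21 other settings, while its difference stayed positive in each. These counts rest on the same contrast, so they too are a description and carry no test. The median difference of the 9 genes was 0.04, and that of all genes tested was -0.01 (log2).

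Boc, the closest relative of Cdon, was slightly higher in the null pools. Its kept probe, on chromosome 16 at 44263258 to 44263317, gave 2760, 2141, 2629 and 2478 in null pools 1 to 4, against 2560, 1877, 2582 and 2188 in wild-type pools 1 to 4. These raw signals overlap, and the scaled values do not, with a lowest null pool at 0.69 and a highest wild-type pool at 0.62 (log2). The difference was 0.20 ± 0.07 (SE, log2). Its size leans on the scaling, since it was 0.11 with arrays scaled on their medians and 0.13 with no scaling. The other 2 Boc probes were not well above background on any array.

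Gas1, on chromosome 13 at 59283463 to 59283522, had a signal of 8725, 9616, 10853 and 9832 in null pools 1 to 4 and of 9497, 8235, 9755 and 8676 in wild-type pools 1 to 4. Relative to the 75th percentile it averaged 2.73 ± 0.17 in the null pools and 2.55 ± 0.06 in the wild-type pools (SD, n = 4 each, log2). Null pool 1 lay within the wild-type range, and the difference was 0.18 ± 0.10 (SE, log2). All 3 co-receptor genes thus had a higher mean in the null pools, with Cdon at 2.47-fold, Boc at 1.15-fold and Gas1 at 1.13-fold. In the other direction from Cdon across pools, Gas1 was highest in null pool 2, the pool in which Cdon was lowest.

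**Figure D2:**
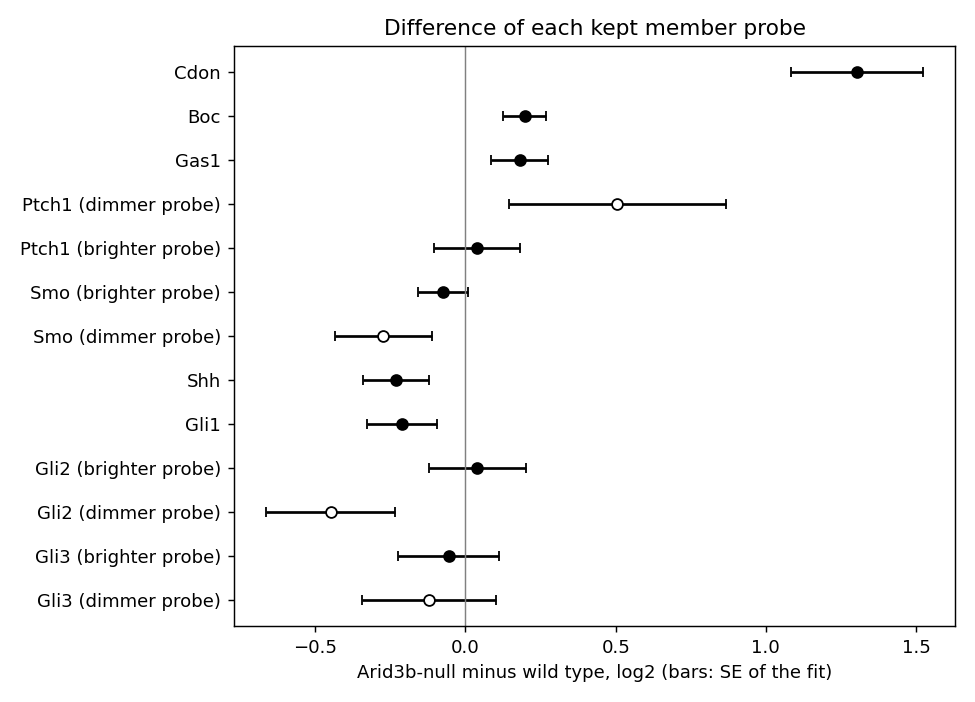
Points give the Arid3b-null minus wild-type difference (log2) of the 13 kept probes of the 9 genes, and bars its SE. Filled points mark the brightest probe of a gene, which stands for it, and open points a dimmer probe. Cdon lies at 1.30, and the other filled points lie between -0.23 and 0.20.

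Shh, the ligand gene, had a lower mean in the null pools. Its probe, on chromosome 5 at 27489898 to 27489957, is printed on 10 spots per array, which makes its level within an array precise: the SD between spots was 0.04 to 0.09 (log2). The signal was 691, 463, 664 and 689 in null pools 1 to 4, against 914, 587, 911 and 692 in wild-type pools 1 to 4. Every null pool lay below the wild-type pool of the same number, by 0.24, 0.28, 0.35 and 0.05 after scaling (log2). The 2 groups overlap, since wild-type pool 2 stood below null pools 1 and 4. The difference was -0.23 ± 0.11 (SE, log2), and it was -0.26 within slide 1 and -0.20 within slide 2.

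Ptch1, the receptor and a readout of the pathway, gave no difference on its brightest probe. That probe, on chromosome 13 at 61331255 to 61331314, had a signal of 969, 581, 1100 and 942 in null pools 1 to 4, against 1084, 677, 997 and 871 in wild-type pools 1 to 4. The groups overlap fully, and the difference was 0.04 ± 0.14 (SE, log2). The other kept probe, at 61333864 to 61333923, gave 458, 98.5, 185 and 210 in null pools 1 to 4, against 184, 117, 177 and 138 in wild-type pools 1 to 4. Null pool 1 stood at 307.6% of the wild-type mean on this probe and at 110.2% on the brightest probe. The high value was not that of a single spot, since the 9 spots of this probe used on that array lay between 442 and 484. Its difference over all pools was 0.51 ± 0.36 (SE, log2), and between pools of the same number it was 1.48, -0.18, 0.17 and 0.56 for numbers 1 to 4.

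Smo, the signal transducer that Ptch1 restrains, differed little on its brightest probe, on chromosome 6 at 29693371 to 29693430. The scaled level was 5.32 ± 0.07 in the null pools and 5.39 ± 0.12 in the wild-type pools (SD, n = 4 each, log2), a difference of -0.08 ± 0.08 (SE). The other kept probe, mapped to 29687728 to 29688961, stood at -0.27 ± 0.16 (SE, log2), and its groups overlap. A further Smo probe was not well above background on any array.

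Gli1, the transcriptional readout, had a lower mean in the null pools. Its probe, on chromosome 10 at 126832331 to 126832390 and also printed on 10 spots, gave 159, 100.4, 158 and 140 in null pools 1 to 4, against 186, 129, 206 and 156 in wild-type pools 1 to 4. As with Shh, every null pool lay below its same-numbered wild-type pool, by 0.06, 0.30, 0.28 and 0.20 after scaling (log2), and the groups overlap. The difference was -0.21 ± 0.12 (SE, log2), so that the null pools stood at 86.4% of wild type.

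Gli2, the main activator among the Gli factors, stood at 0.78 ± 0.29 in the null pools and at 0.74 ± 0.19 in the wild-type pools on its brightest probe, on chromosome 1 at 118695197 to 118695256 (SD, n = 4 each, log2). Its dimmer probe, at 118696781 to 118696840, stood at -0.45 ± 0.21 (SE, log2 difference), so the 2 Gli2 probes differ in sign. Gli3, which acts mainly as a repressor, stood at 3.03 ± 0.29 in the null pools and at 3.09 ± 0.22 in the wild-type pools on chromosome 13 at 15096631 to 15096690. Pool 2 was the lowest of its group for Gli2, Gli3, Shh, Gli1 and the brightest Ptch1 probe, in the null and in the wild-type pools alike.

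Cdon lies 22.4 Mb from the Arid3b probes on the same chromosome. Of 928 genes tested on chromosome 9, Cdon included and Arid3b left out, 6.47% passed an adjusted p under 0.05. Of the 233 genes between Cdon and Arid3b 7.73% passed (12 higher and 6 lower), against 4.20% of all genes. Whether linkage to Arid3b bears on the Cdon signal was not tested. By the smallest root mean square difference between centred profiles over the 8 arrays, the genes nearest to Cdon were Abhd18 (0.316), Fos (0.321), Tppp (0.333), Rasgrf1 (0.344) and Aire (0.346), in log2 units among 17001 other genes. This likeness rests mainly on the gap between the groups.

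None of the other genes of the pathway passed the test in the fit on genotype only. Of 50 listed genes, which release, carry, bind or transduce the ligand or serve the primary cilium, 49 were measured and limma called 0 (adjusted p under 0.05). At an unadjusted p under 0.05 there were 14 of 49, against 20.7% of all genes tested. The list median was -0.01, as for all genes, and 24 genes had a higher and 25 a lower mean. The smallest p was that of Kif7, which encodes a ciliary kinesin that regulates Gli processing, at -0.43 ± 0.10 (SE, log2; limma adjusted p = 0.0586). With same-numbered pools blocked (the replicate block) 7 of the 49 were called, against 2343 of all 17099 genes tested. Among the 7 were Gpc3, Ift172, Kif3a and Ulk3, higher in the null pools, and Kif7 and Evc, lower in the null pools. Blocking the slide gave 4 calls of 49, against 1370 of 17099. Both counts are near the share of all genes, and nothing is read from them.

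Feedback and transport genes named here did not pass either. Hhip, a decoy receptor induced by the signal, stood at 0.05 ± 0.08 (SE, log2; limma adjusted p = 0.796). Sufu, which holds Gli proteins in the cytoplasm, stood at -0.21 ± 0.12, and Gpr161, a ciliary receptor that restrains the pathway, at -0.50 ± 0.27 (adjusted p = 0.363 and 0.356). Disp1, which releases the ligand, stood at -0.03 ± 0.13, and the endocytic receptor Lrp2 at 0.14 ± 0.24 (SE, log2).

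Genes that respond to Hedgehog signalling in the ventral neural tube, sclerotome and gut mesenchyme tended to lower values in the null pools, and 4 of them fell. Of 20 listed genes 18 had a lower mean, 4 fell, 0 rose and 16 did not pass, and the list median was -0.17. Over all genes tested 51.3% had a lower mean, 1.35% fell and the median was -0.01. For 9 of the 20, null and wild-type values did not overlap, against 16.1% of all genes. The list was chosen with earlier results of these data known, so these counts describe it and carry no test of the list. Slide 1 alone gave a list median of -0.20 and slide 2 alone -0.15, and it lay between -0.26 and -0.14 under the 21 other settings tried.

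Pax1, a gene of the sclerotome and the pharyngeal pouches, had -0.145, -0.33, -0.23 and 0.22 in null pools 1 to 4, against 0.85, 0.89, 0.87 and 0.61 in wild-type pools 1 to 4 (log2 relative to the 75th percentile). It fell by 0.93 ± 0.13 (SE, log2; limma adjusted p = 0.0132), to 0.526 of the wild-type level. Olig2, of motor neuron progenitors, had -2.09, -2.17, -2.02 and -1.78 in null pools 1 to 4, against -1.30, -1.20, -1.36 and -1.42 in wild-type pools 1 to 4. Nkx2-9, of the most ventral neural progenitors, had -1.45, -1.44, -1.41 and -1.02 in null pools 1 to 4 and lay between -0.86 and -0.71 in the wild-type pools. It fell by 0.55 ± 0.11 (SE, log2; adjusted p = 0.0382). Ccnd1, the G1 cyclin, lay between 2.34 and 2.50 in the null pools and between 2.82 and 2.94 in the wild-type pools, and fell by 0.48 ± 0.07 (adjusted p = 0.0143).

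The other ventral genes did not pass the test. Nkx2-2, which marks the same ventral progenitors, stood at -0.44 ± 0.10 (SE, log2; limma adjusted p = 0.0524), and it was called with the replicate number as a block (adjusted p = 0.0467). Nkx6-1 stood at -0.36 ± 0.13, with a value on 3 of the 4 null arrays, and all of these lay below the wild-type pools (adjusted p = 0.167). Foxa2, of the floor plate and endoderm, stood at -0.14 ± 0.07, and Foxf1, of the gut mesenchyme, at -0.27 ± 0.11 (adjusted p = 0.336 and 0.214).

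The 4 markers of neural progenitors moved with these genes. Sox1, Sox2, Sox3 and Hes5 had a lower mean in the null pools, the groups overlapped for none of them, and Sox3 fell (limma adjusted p = 0.0444). Their summed level, relative to the 75th percentile, was 27.0 to 30.0 in the null pools and 31.1 to 38.8 in the wild-type pools. The sum adds unlogged levels, so most of it is Hes5 (mean 4.59 in the null and 4.85 in the wild-type pools, log2). Sox2 stood at 2.02 and 2.21, and Sox1 and Sox3 lower still. Heart markers had a higher sum, at 129 to 173 in the null pools and 109 to 121 in the wild-type pools. Most of that sum is Myl7 (mean 6.35 in the null and 6.13 in the wild-type pools, log2). All 4 heart markers had a higher mean in the null pools, and 1 of them, Nppa, rose. Its mean was 4.23 in the null and 2.89 in the wild-type pools, a difference of 1.34 ± 0.29 (SE, log2; limma adjusted p = 0.0433). Nppa thus also adds to the higher sum. The part of such shifts in the values of the ventral genes was not tested.

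Intermediate and dorsal neural tube genes lay on both sides of wild type. Of 10 listed genes 9 were measured, 6 had a higher mean, 1 fell and 0 rose, and the list median was 0.09. The sign of that median was not stable. It was -0.03 without wild-type pool 1, -0.02 with the Y-linked covariate, 0.002 without null pool 4, and -0.01 with arrays scaled on their medians, beside -0.10 for all genes. Dbx1, of intermediate progenitors, fell by 0.64 ± 0.14 (SE, log2; limma adjusted p = 0.0431), while Pax6 stood at -0.11 ± 0.10, Pax7 at -0.10 ± 0.30 and the roof plate ligand gene Wnt1 at 0.34 ± 0.09 (adjusted p = 0.609, 0.911 and 0.0774). Wnt1 was called with the replicate block (adjusted p = 0.0313). The difference between the ventral and the dorsal lists was not tested.

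**Figure D3:**
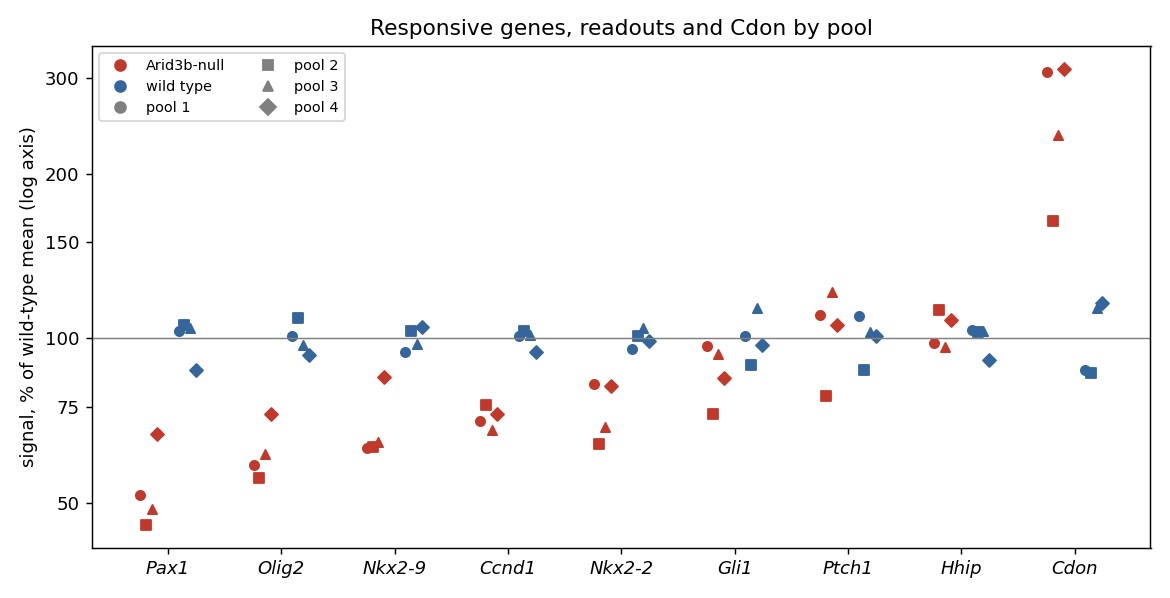
The signal of each gene is shown in 4 Arid3b-null pools (red, left of each pair) and 4 wild-type pools (blue, right) as a percentage of the wild-type mean, on a log axis, with marker shapes for the pool number. Pax1, Olig2, Nkx2-9, Ccnd1 and Nkx2-2 lie below wild type in every null pool, the readouts Gli1, Ptch1 and Hhip overlap, and Cdon lies above.

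Among 9 measured genes of the notochord and floor plate, where the ligand is made, 1 fell and 0 rose. Foxj1, a regulator of motile cilia, had -3.22, -3.09, -3.18 and -3.06 in null pools 1 to 4, against -2.60, -2.25, -2.55 and -2.57 in wild-type pools 1 to 4 (log2 relative to the 75th percentile). It fell by 0.65 ± 0.10 (SE; limma adjusted p = 0.0158). The call was lost without null pool 3, wild-type pool 1 or wild-type pool 4 (adjusted p = 0.0615, 0.0515 and 0.0571) and with median scaling (adjusted p = 0.0550). T, the Brachyury gene of the notochord, stood at -0.18 ± 0.30 and Chrd, which encodes a secreted antagonist of BMP, at -0.0027 ± 0.15 (adjusted p = 0.814 and 0.995). The list median was -0.08, and it was 0.05 without null pool 2 and 0.03 with the Y-linked covariate.

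Among relatives and partners of Cdon and Boc, Robo2 passed the test. Of 13 measured genes 1 rose and 0 fell, and the median was 0.08. Robo2, a guidance receptor of the same superfamily, had -2.13, -2.23, -2.15 and -2.07 in null pools 1 to 4, against -2.82, -2.78, -2.83 and -3.01 in wild-type pools 1 to 4. Robo2 rose 1.64-fold, by 0.72 ± 0.08 (SE, log2), with a limma adjusted p of 0.00525, and passed in each of the 8 fits that left out a pool. The value rests on the brightest probe: the mean over all kept Robo2 probes gave 0.28 (adjusted p = 0.242). It was 0.26 with normexp (adjusted p = 0.996), which left an uneven floor between arrays, as given below. Without scaling the call was lost at 0.64 (adjusted p = 0.0841). With the replicate block Ncam1, a cell adhesion gene, was called too (adjusted p = 0.0370). Neo1, which binds netrins and RGM proteins, stood at -0.12 ± 0.14, and the cadherin genes Cdh2 and Cdh15, whose proteins pair with Cdon in muscle precursors, at 0.07 ± 0.11 and 0.15 ± 0.10 (SE, log2).

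Somite and limb bud genes, from tissues that receive the ligand, gave no calls. Of the somite and muscle genes 7 of 9 had a lower mean, with a list median of -0.15 that lay between -0.30 and -0.06 under the 21 other settings. The limb bud median was 0.04, and lay between -0.06 and 0.10. Limma called 0 of 9 measured somite and muscle genes, with 2 at an unadjusted p under 0.05, and 0 of 6 limb bud genes, with 1 at an unadjusted p under 0.05. The smallest p were those of Meox2 at -0.28 ± 0.08 and of Fgf10 at 0.34 ± 0.09 (SE, log2; adjusted p = 0.0887 and 0.0803). Both were called with the replicate number as a block (adjusted p = 0.0455 and 0.0344).

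**Figure D4:**
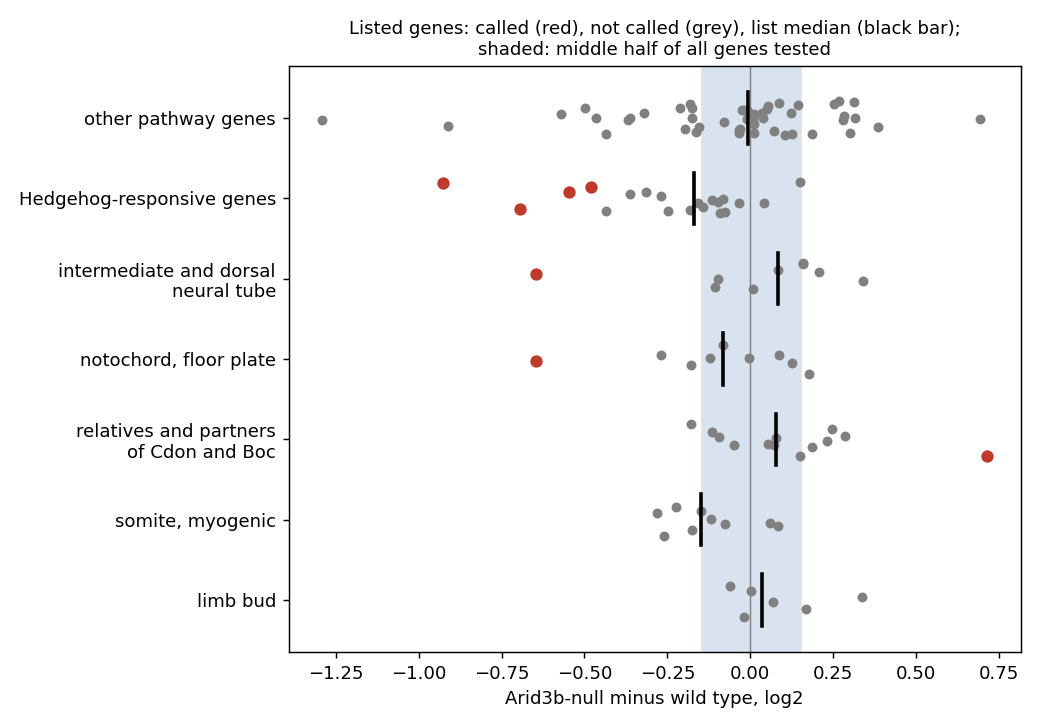
Each point is a measured gene of a list, placed by its Arid3b-null minus wild-type difference (log2), red where the adjusted p was under 0.05 and grey otherwise. Black bars give list medians and the shaded band the middle 50% of all genes tested. The responsive genes lie mostly left of 0 with 4 calls, and the other pathway genes spread around 0 with none.

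The calls in the responsive and neural tube lists depended on single pools. All 5 calls together (Pax1, Olig2, Nkx2-9, Ccnd1 and Dbx1) became 4, 3, 0 and 4 without null pools 1, 2, 3 and 4, and 0, 1, 2 and 1 without wild-type pools 1, 2, 3 and 4. Over these 8 fits Pax1 lay between -1.04 and -0.86 and kept its call in 6, Olig2 lay between -0.77 and -0.64 and kept it in 4, Ccnd1 in 3, and Nkx2-9 and Dbx1 in 1 each. When the Y-linked level entered the fit as a covariate, 3 of the 5 were called.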

How the data were processed

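Per the labels' protocols, RNA of each pool was labelled with Cy3 for 1-colour Agilent arrays, and per the file headers the arrays were read by Feature Extraction 9.5.3.1 on build mm7. The deposited processed intensity of each spot is background-subtracted and detrended within the array (dim spots carry surrogate values) and is not scaled between arrays. A deposited table of log2 values for 27108 probes served as an alternative, with its making by the authors not given in the sources used. Its columns had medians of 9.44 to 9.47, its probe names all matched, and the lowest correlation of a column with its own array was 0.988. The difference of null pool 1 from wild-type pool 1 had a correlation of 0.909 in both sources, which settles the direction. Its centring and any constant added stay unknown.

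Control spots and spots with an outlier flag (87 to 175 per array) were left out, spots of a probe were averaged as log2 values, and the 75th percentile of the array was taken off. Probes well above background on at least 4 arrays were kept (25555), where a probe counts as above background if at least 0.5 of its spots do. The brightest kept probe stood for a gene with at least 2 values per group. Gene names were updated through a RefSeq table (22951 probes by accession, 6659 by symbol, 3109 by an older name, 8455 as in the files). The 2 groups were fitted with limma 3.58.1 under R 4.3.3 (lmFit, eBayes, genotype only, Benjamini-Hochberg over all genes). SE and adjusted p are from that fit over all genes. Values of single member probes are from the same fit over all kept probes.

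The genes and lists were chosen with earlier results of these data known. All 9 genes are described. From each list up to 4 called genes with the smallest adjusted p, or else its gene of smallest p, are named, besides a fixed set of feedback and patterning genes and the 5 nearest profiles to Cdon (clone and predicted names left out). Evc, Gpc3, Ift172, Kif3a, Ulk3, Wnt1, T, Chrd, Cdh2, Cdh15, Sox1, Sox2, Sox3, Hes5, Myl7, Nppa, Ncam1, Prl3d1, Tfap2c, Hand1, Dcn and Hsd11b2 were named after their values were seen. Some genes of the lists are counted but not reported by name here.

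Same-numbered pools deviated together, since their deviations from the group means correlated at 0.557, 0.635, 0.523 and 0.426 (numbers 1 to 4). Same-numbered pools also share a slide, and the correlation between pools of different numbers was not computed. Whether the numbers pair the samples, beyond the shared slide, was therefore not tested. The fit with the replicate number as a block is given as an alternative. The values printed are from the fit without it unless the block is named. On simulated data for null against wild type with 17002 genes, the fit recovered 32.0%, 79.0% and 94.0% of genes changed 1.5-fold, 2-fold and 4-fold, with 9 of 151 calls false. Alternatives covered scaling, background correction, filters, probe choice, slide, replicate number, Y-linked level and left-out pools.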

Additional observations from a re-analysis of the deposited data

Results flagged for a closer look

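Some groups held a pool far from the others, by Dixon's gap at the 95% level. This was so in 4 of 72 groups, where chance gives about 1 in 20. The null group of Nkx6-1 is counted in the 72 but was not examined, since it had a value on only 3 arrays. Arid3b was not among the groups examined. Among null pools, Nkx2-9 stood at -1.02 in pool 4, against -1.45 to -1.41 in the others (log2 relative to the 75th percentile). Among wild-type pools, Pax1 stood at 0.61 in pool 4, against 0.85 to 0.89, and Hhip at -2.30 in pool 4, against -2.13 to -2.12. Foxj1 stood at -2.25 in wild-type pool 2, against -2.60 to -2.55 in the others.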

How the results depend on the processing

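The Cdon difference was positive under all 21 alternatives, at 0.72 to 1.50. It was 0.72 with normexp background correction and lay between 1.19 and 1.50 in the fits without a pool. Normexp left an uneven floor between arrays. The 10th percentile of its log2 values was 9.12 in null pool 4 and 9.88 in wild-type pool 4, against 6.11 to 7.28 on the other arrays. The part of this floor in the normexp values was not tested. The count of 718 genes over the whole series was 204 with median scaling (52.0% higher, against 67.8% in the count above), 157 with no scaling (79.6% higher), 462 with the deposited value table, 164 with no filter on dim probes (83.5% higher), 1370 with slide as a block and 304 with the Y-linked level as a covariate. Limma called 0 genes with normexp (740 at an unadjusted p under 0.05) and 0 within slide 1 or slide 2 (1880 and 2879 at an unadjusted p under 0.05), where 2 pools per group remain. Without a pool it was 93 to 626. With the replicate number as a block the count was 2343 (56.8% higher). The block changed no call among the 9 genes, and the calls it added in the lists are given above. The count in the list of other pathway genes was 1 with the deposited value table (Gpc3) and 1 with probes well above background on all 8 arrays (Kif7), 4 with slide as a block and 7 with the replicate block, and 0 in each fit without a pool. The count of responsive and neural tube genes was 2 with median scaling, 0 with no scaling, 0 with normexp, 3 with no filter, 3 with the Y-linked covariate and 0 within either slide, and 0 to 4 without a pool. The causes were not tested. Of the other 8 genes, Boc and Gas1 stayed higher and Smo, Shh and Gli1 lower in the null pools under all 21 alternatives, while Ptch1, Gli2 and Gli3 took both signs. The number of arrays limits the precision, and Cdon rests on 1 probe.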

Other observations

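The 2 kept Ptch1 probes, 2.61 kb apart on chromosome 13 (mm7), went apart in null pool 1 and nowhere else to that extent. In that pool the dimmer probe stood at 307.6% and the brightest at 110.2% of its own wild-type mean. In null pools 2, 3 and 4 the dimmer probe stood at 78.5%, 120.7% and 139.7% and the brightest at 78.4%, 121.5% and 106.0%. In wild-type pools 1 to 4 it stood at 110.3%, 89.2%, 107.3% and 94.8% and the brightest at 110.0%, 87.5%, 102.7% and 101.2%. Null pool 1 was also high for Cdon, at 307.4% of the wild-type mean, and so was null pool 4, at 311.7%, in which neither Ptch1 probe exceeded 139.7%.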
